A study of Mus musculus with 10 samples.

Results

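The transcripts of 41 genes of DNA replication and the S phase of the cell cycle were examined in mouse Leydig cells by RNA sequencing. The genes were taken by symbol from a list chosen with earlier results of these data known. All 41 were found among the 25239 gene symbols of the count table. The tested samples were MLTC-1 cells given hymeglusin (n = 3), an inhibitor of HMG-CoA synthase, against MLTC-1 cells given DMSO, the solvent control (n = 3). MLTC-1 is an established line from a mouse Leydig cell tumour, so these 6 libraries share a single origin. Primary Leydig cells, the testosterone-producing cells of the testis, came from mice aged 24 months (n = 2) and 2 months (n = 2). Their titles name no treatment. The dose and duration of hymeglusin, the mouse strain and the way the primary cells were isolated were not stated in the labels. Nothing says that replicates were independent cultures or mice, and the p-values therefore reflect the spread among these libraries only, which may be technical.

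The libraries held 17407456 to 34787330 counts, and 3 counts corresponded to 0.0862 to 0.172 units of CPM, the count scaled to library size. All 7 Leydig cell markers, among them Cyp17a1, Star and Insl3, were detected in every library. Their summed level was 6670 to 6850 CPM with hymeglusin and 9210 to 9430 CPM with DMSO. In primary cells it was 20300 and 13800 CPM at 24 months against 18000 and 16300 CPM at 2 months. The 24-month libraries stood apart in their spread, since their counts differed from each other with a chi-square per degree of freedom of 134, against 18.9 at 2 months and 3.44 to 7.67 within the MLTC-1 groups. More gene symbols had at least 1 count with hymeglusin (16557 to 16933) than with DMSO (15258 to 15542).

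Replication begins with licensing, in which the origin recognition complex, CDC6 and CDT1 load the MCM2-7 helicase onto DNA before S phase. The helicase is then activated by CDC45, the GINS complex and MCM10, after which DNA polymerases copy the strands on the PCNA ring, which replication factor C loads. Nucleotide-making enzymes supply the building blocks, and E2F transcription factors switch on many of these genes late in G1. Adult Leydig cells divide rarely, whereas a tumour line in culture cycles.

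The E2F factors bind a short motif, which was searched in the RefSeq promoter windows of the GRCm38.p6 build, running from 250 bases before to 50 bases after the annotated start. The spellings searched were TTTCCCGC, TTTCGCGC, TTTGCCGC and TTTGGCGC, on both strands, and overlapping matches were kept. Windows were found for 33 of the 41 members, 38 windows in all. A match was present in 12 of the 38 member windows (31.6%), against 744 of all 32851 windows (2.26%). Licensing genes held most of them, with 7 of their 10 windows matched (Orc1, Cdc6, Cdt1, Mcm3, Mcm5, Mcm6 and Mcm7), whereas the nucleotide supply group had 0 of 5. The CCAAT box was found in 21 member windows (55.3%) against 37.4% of all windows. The CHR element TTTGAA, a sequence of late cell cycle genes, was found in 4 member windows (10.5%) against 17.9% of all. The 200 bases before the start are shown for Mcm5 and Mcm6, helicase subunits with clustered matches, of which Mcm5 rose with hymeglusin and Mcm6 did not. They lie at chr8:75109309-75109508 on the plus strand and chr1:128359706-128359905 on the minus strand. Capitals mark E2F matches, and the 2 matches of Mcm5 overlap, as do 2 of the 3 of Mcm6.
Mcm5: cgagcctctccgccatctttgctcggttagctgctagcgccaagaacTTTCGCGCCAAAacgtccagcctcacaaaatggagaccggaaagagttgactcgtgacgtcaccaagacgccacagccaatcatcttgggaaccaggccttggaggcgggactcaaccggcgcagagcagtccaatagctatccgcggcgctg
Mcm6: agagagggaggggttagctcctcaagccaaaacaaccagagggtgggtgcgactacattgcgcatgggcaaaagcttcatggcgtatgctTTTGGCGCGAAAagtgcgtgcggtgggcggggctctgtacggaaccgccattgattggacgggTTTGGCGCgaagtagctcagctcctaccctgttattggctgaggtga
A match describes the letters alone, and binding was not measured.

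The first comparison set hymeglusin against DMSO in MLTC-1 cells. Most replication genes were higher with hymeglusin: 28 of 41 rose, 3 fell (Ung, Rrm2 and Mcm6) and 10 passed in neither direction, with edgeR's quasi-likelihood test at an adjusted p under 0.05 over all 12873 genes tested. Among all genes tested 23.8% rose and 24.5% fell. The libraries did not overlap in 30 members that lay higher and 4 that lay lower, against 27.7% and 27.3% of all genes. The median log2 fold change of the members was 0.36 against 0.01 over all genes, and single members ran between -0.57 and 1.01. In bulk RNA, more cells in S phase and more RNA per cell cannot be told apart. CPM values were scaled with TMM factors within each comparison, so the level of a gene in the same library differs slightly between comparisons.

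**Figure D1:**
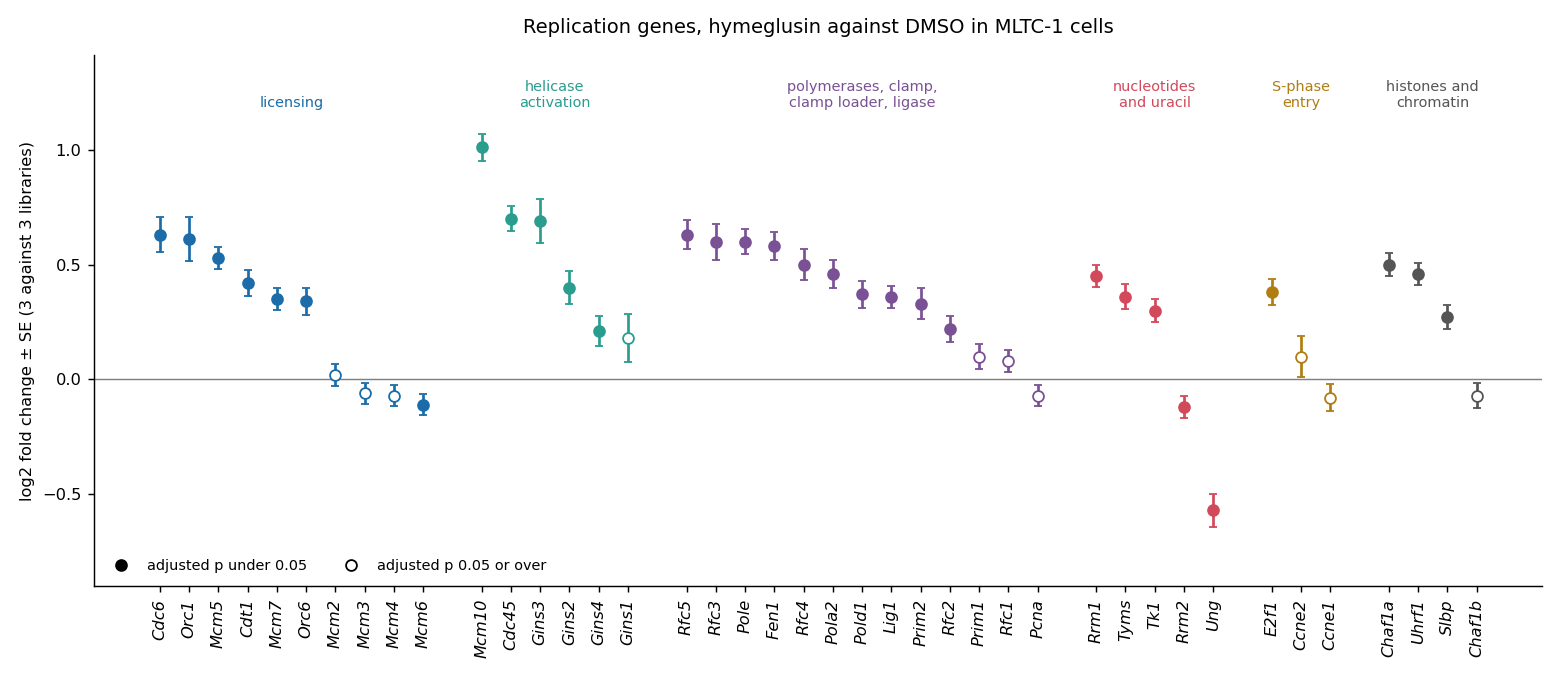
Log2 fold change with hymeglusin against DMSO (vertical axis) of the 41 members, ordered by role along the horizontal axis. Points are estimates from 3 against 3 libraries, bars are ± SE, and filled points passed an adjusted p of 0.05; 28 filled points lie above 0 and 3 below it.

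Of the 10 licensing genes, 6 rose, 1 fell and 3 passed in neither direction, with a median log2 fold change of 0.34. Mcm5, a subunit of the replicative helicase, had 324.9, 301.3 and 326.5 CPM with hymeglusin and 217.3, 214.6 and 228.7 CPM with DMSO (log2 fold change 0.53, SE 0.048, adjusted p = 2.26e-11). Cdc6, which helps load that helicase at origins, had 36.66, 36.67 and 38.69 CPM with hymeglusin and 22.26, 26.7 and 23.13 CPM with DMSO (log2 fold change 0.63, SE 0.075, adjusted p = 1.02e-08). Cdt1, its loading partner, had 123.4, 120.7 and 133.7 CPM with hymeglusin and 87.35, 97.7 and 96.98 CPM with DMSO (log2 fold change 0.42, adjusted p = 6.77e-08). The groups did not overlap for any of these genes. Orc1 and Orc6, subunits of the origin recognition complex, rose by log2 fold changes of 0.61 and 0.34, and Mcm7 by 0.35.

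Of the 6 helicase subunits 2 rose, Mcm5 and Mcm7, 1 fell and 3 did not pass. Mcm6 had 413.8, 405.7 and 399.9 CPM with hymeglusin and 428.1, 449 and 440.7 CPM with DMSO (log2 fold change -0.11, SE 0.045, adjusted p = 0.0386). All hymeglusin libraries lay below all DMSO libraries, yet the fall was small and close to the threshold. Scaled by total counts the log2 fold change was -0.01 (adjusted p = 0.912), and it also missed the threshold with each of 5 of the 6 libraries left out (DMSO replicate 2, adjusted p = 0.182, DMSO replicate 3, 0.0819, and hymeglusin replicates 1, 2 and 3, 0.0699, 0.0607 and 0.0969). Mcm2, Mcm3 and Mcm4 did not pass, with log2 fold changes of 0.02, -0.06 and -0.07. The differences between subunits were not tested. The subunits assemble as a ring of 6 proteins, so their transcripts were also compared per kilobase of the longest transcript, on CPM scaled over all 10 libraries. Mcm5 and Mcm7 together made up 30.6%, 29.7% and 30.4% of the summed Mcm2 to Mcm7 level with hymeglusin, and 23.8%, 23% and 23.6% with DMSO. These 2 subunits were chosen because they had risen, so their larger joint share restates those calls. A share shows unequal change among the 6, and not that any of them was constant.

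**Figure D2:**
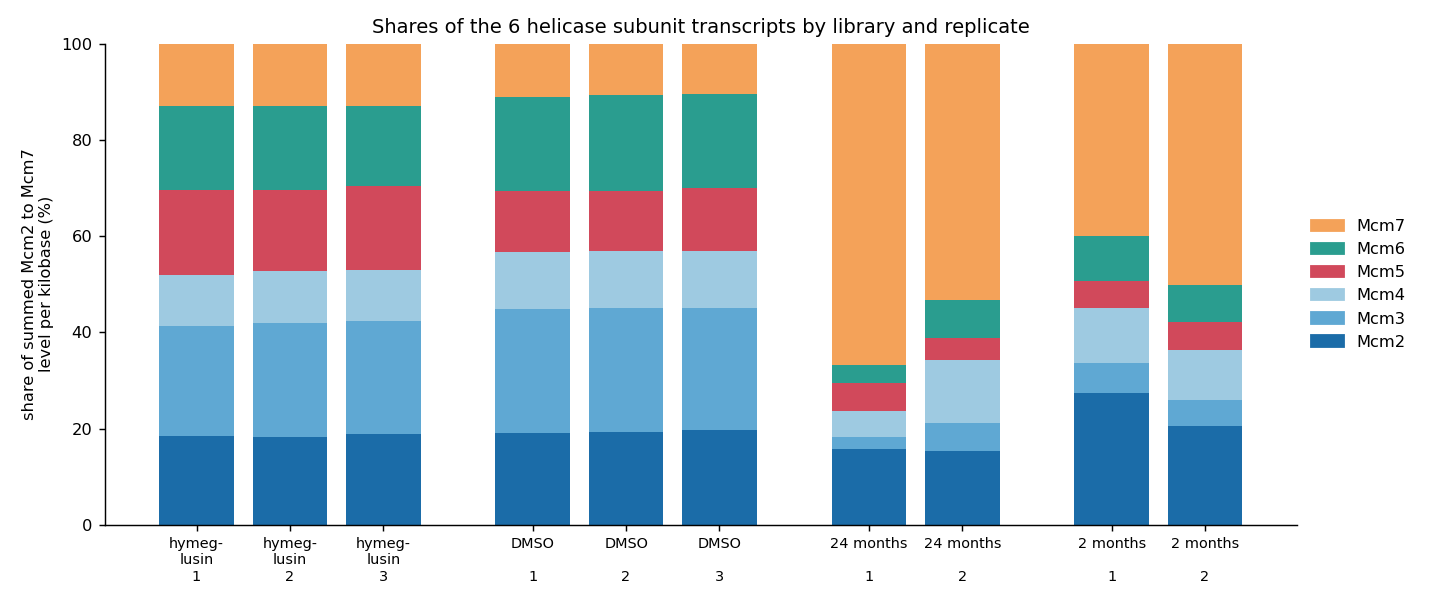
Share of each of the 6 MCM helicase transcripts in their summed level per kilobase (vertical axis, percent) in each of the 10 libraries, grouped as hymeglusin, DMSO, 24 months and 2 months. Mcm5 plus Mcm7 takes 29.7% to 30.6% with hymeglusin and 23% to 23.8% with DMSO, and Mcm7 alone takes 39.9% to 66.7% in the primary cells.

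The 6 helicase activation genes had the largest median of the role groups, a log2 fold change of 0.54, with 5 higher and 0 lower. Mcm10, which helps activate the loaded helicase and lies at chr2:4989714-5012791 on the minus strand, had 79.36, 77.13 and 77.7 CPM with hymeglusin and 39.85, 40.03 and 36.07 CPM with DMSO. Its log2 fold change of 1.01 (SE 0.06, adjusted p = 4.34e-16) was the largest of the 41. Cdc45, part of the active helicase, had 112.9, 117.6 and 122.3 CPM with hymeglusin and 70.14, 73.03 and 73.82 CPM with DMSO (log2 fold change 0.7, SE 0.053, adjusted p = 2.82e-13). Neither gene had overlapping groups. Gins3, a GINS subunit, had 17.61, 17.92 and 18.18 CPM with hymeglusin and 12.53, 10.33 and 10.55 CPM with DMSO (log2 fold change 0.69, SE 0.096, adjusted p = 2.27e-07). Gins2 rose by 0.4 on the log2 scale, but 67.3% of its exon bases are shared with Gse1 on the other strand, and whether the counting used strand is not given. Gins4 had 41.86, 42 and 44.41 CPM with hymeglusin and 39.47, 35.74 and 36.24 CPM with DMSO (log2 fold change 0.21, adjusted p = 0.00934). That call was lost without DMSO replicate 2 (adjusted p = 0.0665) or hymeglusin replicate 3 (adjusted p = 0.052). Gins1 did not pass at 0.18 (adjusted p = 0.152), although its hymeglusin libraries all lay above its DMSO libraries.

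**Figure D3:**
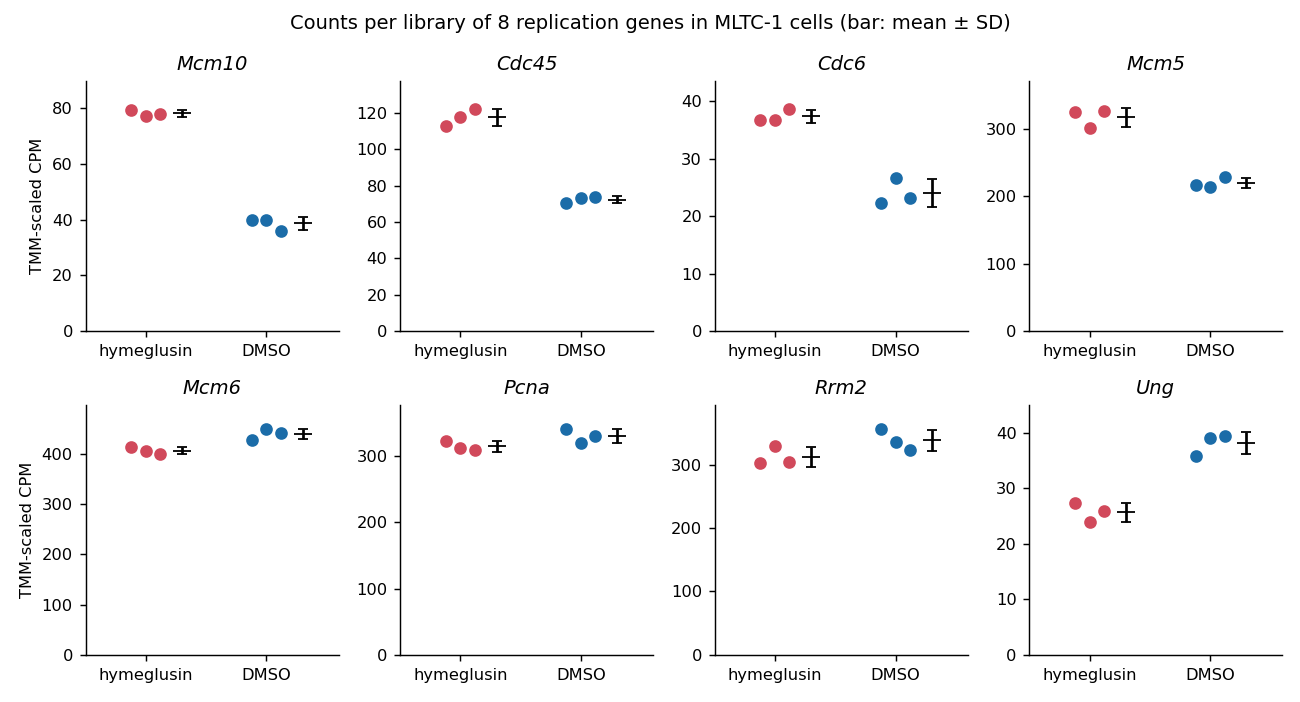
TMM-scaled CPM (vertical axes, from 0) of 8 members in the 3 hymeglusin and 3 DMSO libraries, with the mean ± SD beside the points. Mcm10, Cdc45, Cdc6 and Mcm5 sit higher in every hymeglusin library, Mcm6 and Ung sit lower in every one, and Pcna and Rrm2 overlap.

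Among the 13 genes of the polymerases, clamp, clamp loader and strand joining, 10 rose and 0 fell, with a median log2 fold change of 0.37. Pole, the catalytic subunit of the leading-strand polymerase, had 124.3, 125.5 and 126.6 CPM with hymeglusin and 76.94, 86.04 and 84.77 CPM with DMSO (log2 fold change 0.6, SE 0.053, adjusted p = 1.16e-11). Rfc5, a clamp loader subunit, had 75.27, 65.84 and 68.96 CPM with hymeglusin and 44.91, 43.63 and 47.43 CPM with DMSO (log2 fold change 0.63, adjusted p = 1.35e-10). Fen1, the flap nuclease that trims Okazaki fragments, had 70.13, 67.57 and 75.44 CPM with hymeglusin and 46.22, 46.87 and 49.22 CPM with DMSO (log2 fold change 0.58, adjusted p = 3.71e-10). All 3 genes were higher in every hymeglusin library, but other genes, Tmem258 among them, overlap 84.2% of the exon bases of Fen1. Rfc3, Rfc4, Pola2, Pold1, Lig1, Prim2 and Rfc2 rose by log2 fold changes of 0.22 to 0.6. The clamp gene Pcna, whose reads its processed copies Pcna-ps1 and Pcna-ps2 may share, did not pass. It had 323.2, 311.9 and 308.4 CPM with hymeglusin and 341.4, 319.6 and 330.5 CPM with DMSO, which overlap (log2 fold change -0.07, adjusted p = 0.21). Within the clamp loader, Rfc1 stood at 0.08 (adjusted p = 0.206), while Rfc2 to Rfc5 all rose.

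The nucleotide supply and uracil removal group split, with 3 genes higher and 2 lower, and both subunit genes of ribonucleotide reductase are members. Rrm1, its large subunit, had 271.7, 280.3 and 261.9 CPM with hymeglusin and 199, 205.8 and 192.9 CPM with DMSO (log2 fold change 0.45, SE 0.048, adjusted p = 9.7e-10). Rrm2, the small subunit, had 301.8, 329.7 and 303.7 CPM with hymeglusin and 355.4, 336.2 and 323 CPM with DMSO (log2 fold change -0.12, SE 0.049, adjusted p = 0.0464). The groups overlap for Rrm2, and its fall was lost without DMSO replicate 1 (adjusted p = 0.158), DMSO replicate 2 (0.101), hymeglusin replicate 1 (0.203) or hymeglusin replicate 3 (0.14), and with total count scaling (log2 fold change -0.01). Tyms, which makes thymidylate, had 79.18, 76.5 and 76.64 CPM with hymeglusin and 59.99, 60.27 and 60.3 CPM with DMSO (log2 fold change 0.36, adjusted p = 1.14e-06). A named copy of Tyms, Tyms-ps, may share its reads. Tk1, the thymidine kinase of cycling cells, had 151.1, 144.4 and 143.8 CPM with hymeglusin and 123.8, 116.7 and 116.9 CPM with DMSO (log2 fold change 0.3, adjusted p = 5.92e-06). Both were higher in every hymeglusin library.

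Ung had the largest fall of the 41 members. It encodes uracil-DNA glycosylase, which cuts uracil out of DNA, and lies at chr5:114130386-114139323 on the plus strand. Ung had 27.33, 23.88 and 25.89 CPM with hymeglusin and 35.81, 39.11 and 39.49 CPM with DMSO (log2 fold change -0.57, SE 0.073, adjusted p = 4.13e-08). The groups did not overlap, and the log2 fold change was -0.47 with total count scaling. Dut, the dUTPase that keeps uracil out of DNA and is outside the 41 members, also fell by 0.17 on the log2 scale (adjusted p = 0.0118).

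Of the 3 genes of S-phase entry only E2f1 passed. E2f1, a transcription factor for S-phase genes, had 77.86, 76.5 and 83.36 CPM with hymeglusin and 58.33, 61.87 and 63.07 CPM with DMSO (log2 fold change 0.38, SE 0.057, adjusted p = 1.27e-06). Its groups did not overlap. The cyclin E genes, partners of CDK2 at the start of S phase, did not pass, with log2 fold changes of -0.08 for Ccne1 (adjusted p = 0.299) and 0.1 for Ccne2 (adjusted p = 0.386).

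In the histone supply and chromatin group 3 of 4 rose. Chaf1a, the large subunit of the chromatin assembly factor that places histones on new DNA, had 161.3, 156.3 and 169.5 CPM with hymeglusin and 110.5, 114.5 and 120.6 CPM with DMSO (log2 fold change 0.5, adjusted p = 4.12e-10). Other genes overlap 52.5% of its exon bases. Its partner Chaf1b stood at -0.07 (adjusted p = 0.307). Uhrf1, which helps copy DNA methylation, had 400.9, 407.1 and 440.3 CPM with hymeglusin and 285.4, 304.1 and 315.3 CPM with DMSO (log2 fold change 0.46, adjusted p = 7.04e-10). Slbp, the histone mRNA stem-loop binding protein, had 140.8, 142.3 and 132.9 CPM with hymeglusin and 121.6, 114.9 and 109 CPM with DMSO (log2 fold change 0.27, adjusted p = 5.39e-05). Both were higher in every hymeglusin library.

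The 5 most abundant members per kilobase in DMSO cells were Pcna, Rrm2, Mcm3, Mcm6 and Mcm2, with means of 210, 149, 127, 97.4 and 95.5 CPM per kilobase. None of these 5 rose, 2 fell, and their log2 fold changes ran between -0.12 and 0.02. Of the 5 members ranked 6 to 10, 4 rose and 0 fell, with a median log2 fold change of 0.36, close to the lower ranks. Of the 31 members ranked 11 to 41, 24 rose and 1 fell, with a median log2 fold change of 0.38. Across the 41 members Spearman's rho between the log2 fold change and the level was -0.35 with the hymeglusin level and -0.5 with the DMSO level. These are descriptions across genes, and level and change share their libraries. Of the 12 members with an E2F match, 10 rose and 1 fell, and of the 21 with a window but no match 13 rose and 2 fell, a difference that was not tested.

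Beyond the 41 members, a list of 63 other replication genes had 33 higher and 4 lower, with a median log2 fold change of 0.19. The smallest adjusted p-values among the rises belonged to Clspn, a checkpoint adaptor at forks (log2 fold change 0.77), Recql4, a helicase of origin firing (1.04), Asf1b, a histone chaperone (0.69), and Dtl, which targets CDT1 for destruction (0.72). The 4 that fell were Cdk4 (-0.27), Asf1a (-0.35), Mcmbp (-0.18) and Dut (-0.17). The histone chaperone paralogs thus moved in opposite directions, with Asf1b at 165.1, 161.1 and 176.1 CPM with hymeglusin and 108.1, 101.8 and 101.2 CPM with DMSO. Asf1a had 24.18, 23.21 and 23.49 CPM with hymeglusin and 29.27, 30.33 and 30.54 CPM with DMSO. The groups overlapped for neither paralog. Genes of mitosis rose too, with log2 fold changes of 0.53 for Mki67, 0.78 for Top2a, 0.75 for Ccnb1 and 0.58 for Cdk1.

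The second comparison set primary Leydig cells of 24 months against those of 2 months. The members as a whole did not move in 1 direction: 0 of 41 rose and 1, Rfc1, fell, with edgeR's quasi-likelihood test over 16381 genes. Among all genes 13.5% rose and 15.1% fell. At an unadjusted p under 0.05 there were 4 of the 41 members, against 7070 of all 16381 genes. By DESeq2 1 member was higher and 1 lower, and by limma-voom 0 and 1. The median log2 fold change was -0.01, as over all genes. With 2 libraries a group and a biological coefficient of variation of 0.307, against 0.0509 in the MLTC-1 comparison, changes within this spread were not detectable. Calls followed transcript length over all genes: in the shortest decile of transcripts 50.8% rose and 1.56% fell, and in the longest decile 1.06% rose and 54.6% fell. The 24-month libraries did not overlap the 2-month libraries in 12 members that lay higher and 14 that lay lower, against 35.9% and 37.9% of all genes.

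**Figure D4:**
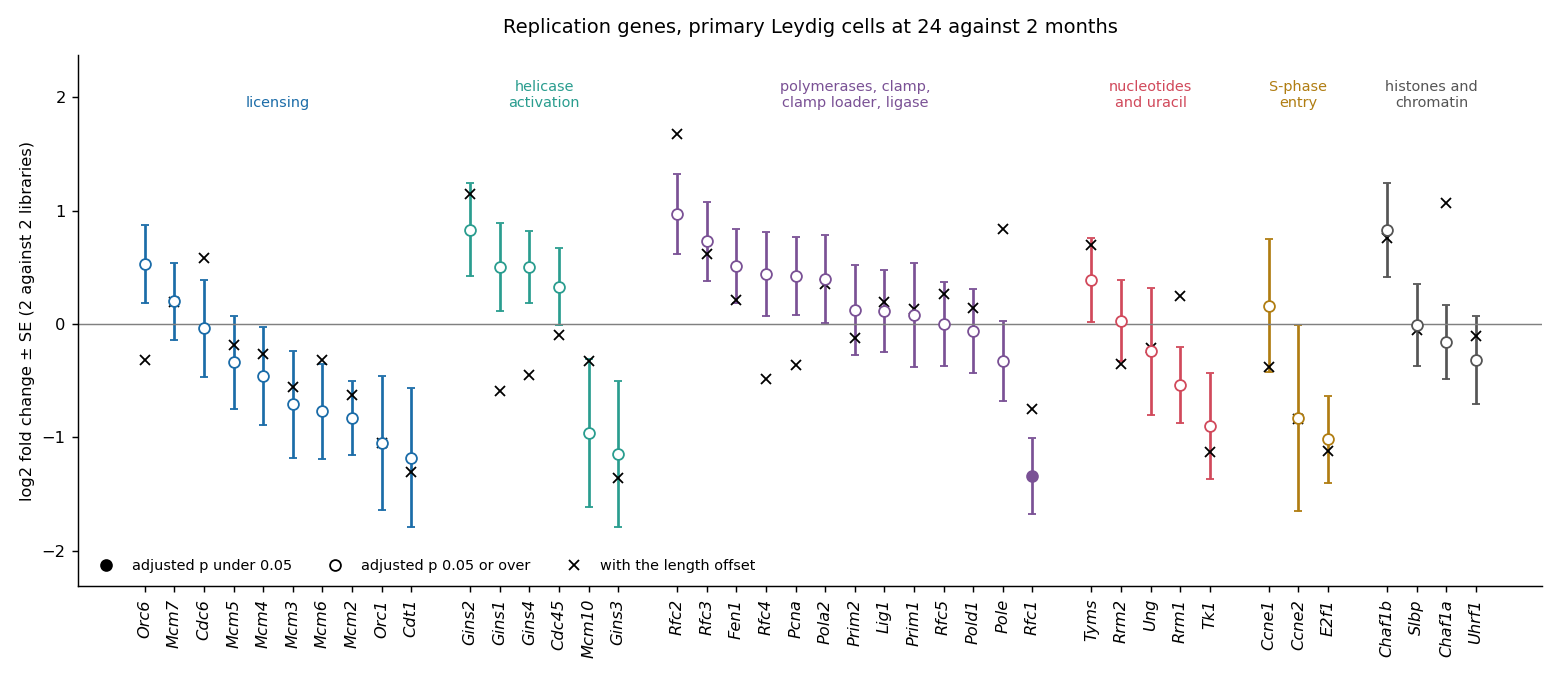
Log2 fold change at 24 against 2 months (vertical axis) of the 41 members by role. Points are estimates from 2 against 2 libraries with bars of ± SE, filled where the adjusted p was under 0.05, and crosses are estimates with a transcript length offset; Rfc1 is the only filled point.

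Rfc1, the large subunit of the clamp loader, lies at chr5:65261850-65335670 on the minus strand. It had 24.11 and 34.2 CPM at 24 months against 71.32 and 76.43 CPM at 2 months (log2 fold change -1.34, SE 0.334, adjusted p = 0.021). Both 24-month libraries lay below both 2-month libraries. The call was lost with a transcript length offset (log2 fold change -0.75, adjusted p = 0.105), with total count scaling (adjusted p = 0.0508), and without 2-month replicate 1 (adjusted p = 0.171) or 2 (adjusted p = 0.173). Rfc2, another clamp loader subunit, had 117.4 and 77.53 CPM at 24 months against 43.22 and 56.46 CPM at 2 months (log2 fold change 0.97, adjusted p = 0.0651). With the length offset its log2 fold change was 1.68 (adjusted p = 0.0124). Without 24-month replicate 2 it was 1.17, in a fit that rests on a lone 24-month library. Lat2 overlaps 15.1% of the exon bases of Rfc2.

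None of the 10 licensing genes passed the test at 24 months. In 7 of them both 24-month libraries lay below both 2-month libraries, against 37.9% of all genes, and in Mcm4 by only 13.85 against 13.9 CPM. Their median log2 fold change was -0.59, and -0.32 with the length offset, under which the genes ran between -1.31 and 0.58 and Cdc6 stood at 0.58 in place of -0.04. Mcm2 had the smallest p of the group, with 17.88 and 15.84 CPM at 24 months against 33.2 and 26.67 CPM at 2 months (log2 fold change -0.83, SE 0.329, adjusted p = 0.0836). E2f1 of the S-phase entry group had 6.569 and 4.934 CPM at 24 months against 12.68 and 10.63 CPM at 2 months (log2 fold change -1.02, SE 0.388, adjusted p = 0.0734). Tk1 of the nucleotide group had 2.235 and 2.363 CPM at 24 months against 4.498 and 4.083 CPM at 2 months (log2 fold change -0.9, adjusted p = 0.169). The groups did not overlap for these 3 genes, and none passed in the main fit. With the length offset E2f1 stood at -1.12 (adjusted p = 0.0666). E2f1 was called lower with no count filter and with the length and GC offset. Gins2 had 7.111 and 6.633 CPM at 24 months against 3.844 and 3.862 CPM at 2 months (log2 fold change 0.83, adjusted p = 0.149), and Chaf1b had 7.314 and 6.592 CPM at 24 months against 3.639 and 4.193 CPM at 2 months (0.83, adjusted p = 0.154). These were the smallest p-values of the helicase activation and histone groups, both with higher values at 24 months. Which members were called depended on which library was left out. Each such fit rests on a lone library at 1 age, which is assumed to vary like the other group.

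Some markers of other cells differed with age in the same libraries. Spermatid genes, all 6 detected, summed to 9210 and 4670 CPM at 24 months against 1460 and 1930 CPM at 2 months. The 10 spermatogonial and spermatocyte genes, which belong to germ cells that replicate DNA, summed to 142 and 202 CPM at 24 months against 159 and 235 CPM at 2 months, with Stra8 at 0 in 2-month replicate 1. Those ranges overlap. The 8 macrophage genes summed to 49.5 and 41.1 CPM at 24 months against 12.1 and 14.6 CPM at 2 months. Among them Lyz2, C1qa, C1qb and Cd68 were higher in both 24-month libraries. Adgre1 was lower in both (0.397 and 0.248 CPM against 0.58 and 0.951 CPM), and Csf1r, Mrc1 and Cd163 overlapped. The 5 neutrophil genes summed to 10.5 and 62.6 CPM at 24 months, with Ly6g at 0, and to 0.746 and 0.951 CPM at 2 months, with S100a8, S100a9, Ly6g and Elane at 0. The 4 stromal genes summed to 114 and 197 CPM at 24 months against 591 and 621 CPM at 2 months, although Col1a1 overlapped. The part of these cells in the replication values was not tested.

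Of the 63 other replication genes, 4 rose (6.35%) and 9 fell (14.3%) at 24 months, against 13.5% and 15.1% of all genes. The share that fell was thus near that of all genes, and the share that rose was below it. The median log2 fold change of the list was -0.54, against -0.01 over all genes. With the length offset these medians were -0.32 and -0.07. E2f3, an E2F factor, had 2.641 and 3.192 CPM at 24 months against 16.97 and 13.31 CPM at 2 months (log2 fold change -2.37, adjusted p = 0.00803). Dnmt1, the maintenance DNA methyltransferase, had 13.88 and 16.17 CPM at 24 months against 45.1 and 44.69 CPM at 2 months (log2 fold change -1.58, adjusted p = 0.0125). Samhd1, which degrades nucleotides, fell by 1.46 on the log2 scale (adjusted p = 0.0147). Ticrr, needed for helicase activation, had 0 counts at 24 months against 44 at 2 months, at least 11.7-fold lower with 3 counts set over the 24-month group. On the other side, Dctpp1, a nucleotide pyrophosphatase, had 61.83 and 30.76 CPM at 24 months against 12.19 and 10.74 CPM at 2 months (log2 fold change 2.01, adjusted p = 0.012). Rnaseh2c, Pole4 and Rnaseh2a rose by log2 fold changes of 1.53, 1.12 and 1.39. With a transcript length offset the list had 3 higher and 3 lower, the 3 higher being Rnaseh2a, Rnaseh2b and Skp2. Rnaseh2c then stood at 0.35 (adjusted p = 0.477), Pole4 at 0.46 (adjusted p = 0.331), Dctpp1 at 0.44 (adjusted p = 0.341), Dnmt1 at -0.67 (adjusted p = 0.145) and E2f3 at -1.67 (adjusted p = 0.0152). The calls of the list also depended on which library was left out, and each such fit rests on a lone library at 1 age.

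Mki67, a marker of cycling cells, had 0.1355 and 2.197 CPM at 24 months against 10.67 and 15.63 CPM at 2 months (log2 fold change -3.4, adjusted p = 0.0181). Top2a, a topoisomerase of dividing cells, had 8.33 and 10.7 CPM at 24 months against 24.29 and 37.33 CPM at 2 months (log2 fold change -1.69, adjusted p = 0.0142). Both were lower in each 24-month library, but Mki67 in 24-month replicate 1 lay below that library's floor of 3 counts, 0.172 CPM. With the length offset the adjusted p-values were 0.0507 for Mki67 and 0.0753 for Top2a. The Mki67 call was also lost with total count scaling, and the Top2a call with the length and GC offset. The Top2a call was lost too without 2-month replicate 2, in a fit that rests on a lone 2-month library. Ccnb1 and Cdk1, the cyclin and kinase of mitotic entry, did not pass, with log2 fold changes of 0.81 (adjusted p = 0.0937) and 0.44 (adjusted p = 0.387).

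The third comparison set DMSO-treated MLTC-1 cells against primary cells of 2 months, which places the members between a cycling tumour line and young primary cells. The line, its culture and the preparation differ together and cannot be told apart, and the comparison shares the DMSO libraries with the first and the 2-month libraries with the second. Almost every member was higher in MLTC-1 cells: 40 of 41 rose and 0 fell, while among 16092 genes tested 34.4% rose and 48.5% fell. All 41 lay higher in every MLTC-1 library than in both primary libraries and 0 lay lower, against 37.7% and 51.7% of all genes. The median log2 fold change was 2.39 for the members and -0.27 for all genes. With the requirement of a log2 fold change over 1, 35 members were still called higher. Calls over all genes followed transcript length here too, with 15.4% higher and 67.5% lower in the shortest decile. In the longest decile 49.9% were higher and 37.9% lower. With the length offset 40 members were higher and 0 lower.

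Licensing genes had the largest median of the role groups, a log2 fold change of 3.59, and all 10 rose. Mcm3 had 433.5, 441.2 and 435.5 CPM in MLTC-1 cells and 7.548 and 7.502 CPM in 2-month cells (log2 fold change 5.86, SE 0.075, adjusted p = 1.62e-10). Mcm6 had 412.9, 434 and 425.1 CPM in MLTC-1 cells and 14.51 and 13.97 CPM in 2-month cells (log2 fold change 4.9, adjusted p = 2.55e-10). These groups were far apart. Mcm5 had 209.5, 207.4 and 220.6 CPM in MLTC-1 cells and 6.916 and 8.079 CPM in 2-month cells (log2 fold change 4.82), and Mcm4 had 207, 213.1 and 210.3 CPM in MLTC-1 cells and 14.59 and 15.58 CPM in 2-month cells (log2 fold change 3.8), both with an adjusted p of 7.08e-10. Mcm7 rose least of the helicase subunits, with 159.3, 157 and 154.9 CPM in MLTC-1 cells and 42.21 and 61.62 CPM in 2-month cells (log2 fold change 1.6, adjusted p = 1.66e-05). Its groups were closer but did not overlap. Per kilobase, Mcm7 alone made up 11%, 10.7% and 10.5% of the 6 helicase transcripts in DMSO cells, against 39.9% and 50.2% in 2-month cells, and it made up 66.7% and 53.2% at 24 months. Cops6 and Ap4m1 on the other strand and 2 microRNA genes on the same strand overlap 12.6% of the exon bases of Mcm7, and reads of that stretch may belong to either.

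Among the helicase activation genes the differences ran from small to large. Cdc45 had 67.65, 70.59 and 71.21 CPM in MLTC-1 cells and 12.9 and 13.64 CPM in 2-month cells (log2 fold change 2.39, adjusted p = 1.69e-08). Mcm10 had 38.43, 38.69 and 34.8 CPM in MLTC-1 cells and 1.265 and 2.02 CPM in 2-month cells (log2 fold change 4.5, adjusted p = 4.49e-08). Gins2 had 30.08, 29.28 and 26.75 CPM in MLTC-1 cells and 3.964 and 4.328 CPM in 2-month cells (log2 fold change 2.79, adjusted p = 1.25e-07). These 3 genes kept the groups far apart. Gins4 had 38.07, 34.55 and 34.95 CPM in MLTC-1 cells and 30.53 and 32.93 CPM in 2-month cells (log2 fold change 0.17, adjusted p = 0.0968). Gins4 was the only member that did not pass, although its groups did not overlap. With the length offset it passed, with a log2 fold change of 0.82 (adjusted p = 2.11e-05).

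Among the nucleotide genes Rrm2 had 342.8, 324.9 and 311.5 CPM in MLTC-1 cells and 15.9 and 17.15 CPM in 2-month cells (log2 fold change 4.3, adjusted p = 7.08e-10). Tk1 had 119.4, 112.8 and 112.8 CPM in MLTC-1 cells and 4.639 and 4.575 CPM in 2-month cells (log2 fold change 4.64, adjusted p = 7.17e-10). Tyms had 57.86, 58.25 and 58.17 CPM in MLTC-1 cells and 7.127 and 8.285 CPM in 2-month cells (log2 fold change 2.91, adjusted p = 1.61e-08). All 5 nucleotide and uracil genes rose, and Rrm1, the partner of Rrm2, had the smallest log2 fold change of them at 1.92.

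Pold1, the catalytic subunit of the lagging-strand polymerase, had 167.8, 172.6 and 180 CPM in MLTC-1 cells and 10.58 and 11.46 CPM in 2-month cells (log2 fold change 3.97, adjusted p = 9.67e-10). Lig1, the ligase that seals Okazaki fragments, had 196.7, 212.3 and 215.2 CPM in MLTC-1 cells and 10.37 and 13.15 CPM in 2-month cells (log2 fold change 4.14, adjusted p = 3.43e-09). Both genes kept the groups far apart. In the clamp loader the log2 fold changes were 0.83 for Rfc1, 0.49 for Rfc2, 1.01 for Rfc3, 1.6 for Rfc4 and 2.16 for Rfc5. The median of the role group was 2.08, and Fen1 (1.45) and Pola2 (1.63) also lay below it. Rfc2 had 78.06, 71.51 and 77.69 CPM in MLTC-1 cells and 44.57 and 63.27 CPM in 2-month cells. Its log2 fold change was 0.06 with a length offset (adjusted p = 0.685). Prim1, the primase that starts new strands, had 82.48, 81.69 and 81.53 CPM in MLTC-1 cells and 3.416 and 3.751 CPM in 2-month cells (log2 fold change 4.51, adjusted p = 1.21e-09). Ccne1 of the entry group had 63.55, 57.7 and 62.09 CPM in MLTC-1 cells and 2.362 and 1.443 CPM in 2-month cells (log2 fold change 5, adjusted p = 1.43e-08). E2f1 had 56.26, 59.8 and 60.84 CPM in MLTC-1 cells and 13.07 and 11.91 CPM in 2-month cells (log2 fold change 2.24, adjusted p = 4.68e-08), and Ccne2 also rose, by 2.62 on the log2 scale. All 3 entry genes were thus higher in the line.

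Chaf1b had 86.41, 77.12 and 83.69 CPM in MLTC-1 cells and 3.753 and 4.699 CPM in 2-month cells (log2 fold change 4.28, adjusted p = 5.27e-09), while its partner Chaf1a rose by 1 on the log2 scale. Slbp had 117.3, 111.1 and 105.1 CPM in MLTC-1 cells and 38.84 and 40.85 CPM in 2-month cells (log2 fold change 1.48, adjusted p = 1.59e-07). Uhrf1 had 275.2, 293.9 and 304.2 CPM in MLTC-1 cells and 11.6 and 21.6 CPM in 2-month cells (log2 fold change 4.13, adjusted p = 8.43e-07). The groups overlapped for none of the 4 chromatin genes.

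The list of 63 other replication genes had 50 higher and 8 lower in MLTC-1 cells, with a median log2 fold change of 1.63. Clspn, Ccna2, E2f2 and Timeless rose by log2 fold changes of 6.37, 5.25, 5.4 and 4.68. Samhd1, Rnaseh2a, Rbl2 and Top1 were lower in MLTC-1 cells, at -1.71, -1.65, -0.97 and -0.84. Spermatid genes were at or below 0.443 CPM in MLTC-1 libraries, against 1460 and 1930 CPM in the 2-month libraries, and their part in this comparison was not tested.

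**Figure D5:**
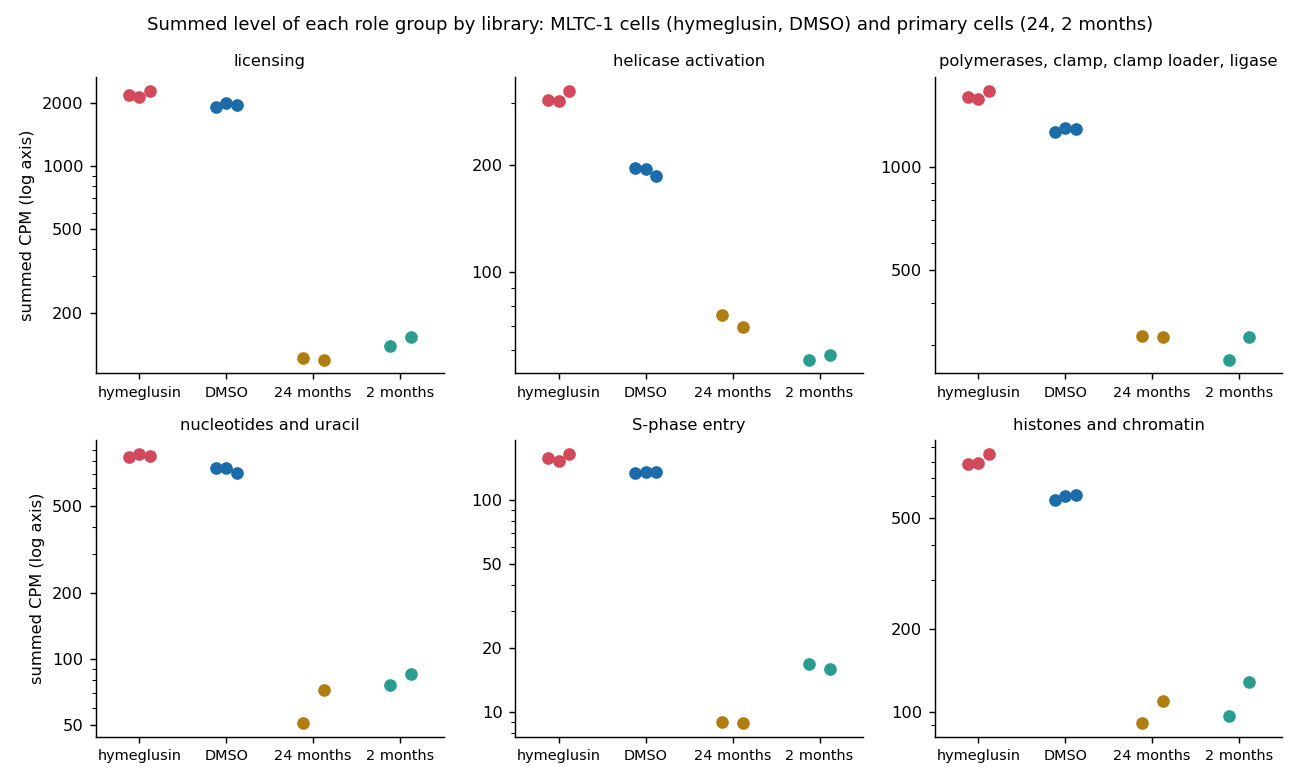
Summed CPM of each role group (vertical axes, logarithmic) in the 10 libraries, in the order hymeglusin, DMSO, 24 months and 2 months. In all 6 panels the MLTC-1 libraries lie above the primary libraries. S-phase entry genes sum to 8.94 and 8.857 CPM at 24 months against 16.91 and 15.97 CPM at 2 months. Helicase activation genes go the other way, at 75.29 and 69.9 CPM at 24 months against 56.23 and 58.28 CPM at 2 months. No gene of either group passed between the ages.

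Set side by side on CPM scaled over all 10 libraries, the 41 members summed to 5881, 5837 and 6146 CPM with hymeglusin, 4830, 4972 and 4881 CPM with DMSO, 666.4 and 697.9 CPM at 24 months, against 656.3 and 758 CPM at 2 months. The summed level was higher in each hymeglusin library than in each DMSO library, and the 24-month values lay between the 2-month values. The order of genes by level also differed between the cells. Per kilobase, 2-month cells had most Pcna (39.4 ± 3.05 CPM per kilobase), Gins4 (22.9 ± 0.869), Mcm7 (17 ± 4.24) and Rfc1 (16.3 ± 1.5, SD, n = 2), where the last 2 did not differ beyond their spread. At 24 months Pcna (50 ± 16.6), Gins4 (30.5 ± 4.58), Rfc2 (19.2 ± 5.29) and Mcm7 (18.4 ± 3.9, SD, n = 2) led, and Rfc2 and Mcm7 did not differ beyond their spread. Mcm10 was lowest in both, at 0.158 ± 0.00722 CPM per kilobase at 24 months and 0.327 ± 0.101 at 2 months (SD, n = 2).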

How the data were processed

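Total RNA (RNeasy) was made into NEBNext Ultra libraries, per the labels' protocols. The authors deposited raw counts per gene symbol, not normalized; fastp 0.23.4, FastQC 0.12.1, HISAT2 2.2.1, featureCounts 2.0.6 and the mm10 build are named per the submitters' processing notes. The strand setting, options and annotation of the counter are not stated in the labels. The table had 0 duplicated symbols and 0 value columns without a sample.

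Groups and replicate numbers came from the labels. Each comparison was fitted apart with edgeR 4.0.16 in R 4.3.3 (quasi-likelihood F-test, two-sided, TMM scaling, genes kept by filterByExpr with a minimum count of 10 and a minimum total of 15). Benjamini-Hochberg adjustment ran over all genes tested, with a threshold of 0.05. The standard error is the log2 fold change divided by the root of F. All 41 members passed the filter in every comparison. The script was tested on simulated data. Alternatives used DESeq2 1.42.0, limma 3.58.1 (voom), other scalings and filters, replicate blocks, loess offsets for transcript length and GC content, and left-out libraries. Levels per kilobase used the longest transcript of a GENCODE annotation of GRCm38, the same assembly as mm10.

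The members and lists were chosen with earlier results of these data known. Values per library are given, for each role group, for up to 3 members a direction with the smallest adjusted p past the threshold, for members whose call was lost under an alternative (the fold threshold and the fit of all libraries left aside), and otherwise for the member of smallest p; Pcna and the joint share of Mcm5 and Mcm7 with hymeglusin, Rfc2, Mcm4 and Cdc6 at 24 months, Rnaseh2b and Skp2 with the length offset, and Mcm7 and the tied Mcm4 in MLTC-1 against primary cells are additions made after seeing their values. Of the other replication genes up to 4 a direction are named.

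Depth limits low genes: 3 counts are the floor, and intervals and floors cover counting error only.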

Additional observations from a re-analysis of the deposited data

How the results depend on the processing

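For hymeglusin the calls were 28 members higher and 3 lower, and 33 and 4 among the other replication genes. Higher counts stayed within 1.5 times of these under the other scalings, filters, tools and offsets. Members called lower numbered 1 with upper quartile scaling, 1 with total counts and 1 with a filter at 10 CPM, and the other genes called lower numbered 2 with total counts, under which the median of all genes was 0.11 in place of 0.01. A required log2 fold change over 1 left 0 and 0 members and 0 and 0 other genes. In 1 fit of all libraries 15 members were higher and 0 lower, with 12 and 0 of the other genes; the cause was not tested. Leaving out 1 library gave 27 to 28 members higher and 1 to 2 lower, and 31 to 33 and 3 to 8 other genes; members lower numbered 1 without DMSO replicate 2, hymeglusin replicate 1 or hymeglusin replicate 3, and the other genes lower numbered 8 without hymeglusin replicate 2.

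At 24 against 2 months the calls were 0 members higher and 1 lower, and 4 and 9 other genes. Members higher numbered 1 with upper quartile scaling, 1 with DESeq2, 1 with the length offset, 2 with the length and GC offset and 11 in 1 fit of all libraries. Members lower numbered 0 with total counts, 2 with no count filter, 0 with a required log2 fold change over 1, 0 with the length offset and 10 in 1 fit of all libraries. Other genes higher numbered 1 with total counts, 0 with the required fold change and 16 in 1 fit; other genes lower numbered 4 with total counts, 5 with a filter at 10 CPM, 1 with the required fold change, 23 in 1 fit, 3 with the length offset and 4 with the length and GC offset. The median of all genes was -0.21 with total counts. In the 1 fit of all libraries, 4309 of all genes were higher and 4559 lower. Leaving out 1 library changed the calls of members and other genes, and each such fit rests on a lone library at 1 age. Chaf1a reversed to 1 with the length and GC offset (adjusted p = 0.0216), against -0.16 without it; the cause was not tested.

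MLTC-1 DMSO against 2 months gave 40 members higher and 0 lower and 50 and 8 other genes; the required fold change left 2 other genes lower, and leaving out 1 library gave 40 to 41 and 0 members and 49 to 50 and 8 other genes.

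No clear pairing of same-numbered samples was seen: their deviations correlated at -0.001, -0.013 and 0.086 for hymeglusin and -0.104 for age. With 2 libraries at each age the deviations mirror each other, so the crossed pairs give 0.104. Deviations from a group mean are tied together, and this check cannot exclude pairing. With a replicate block hymeglusin gave 28 members higher and 3 lower and age 0 and 1; among other genes the block gave 34 and 5, and 4 and 11. The crossed pairing for age, chosen after seeing the data, gave 0 and 1 members and 4 and 12 other genes. With 2 libraries a group at each age and 2 residual degrees of freedom, small changes could not be detected, and genes near the floor of 3 counts carry large errors.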
